A study of Mus musculus with 7 samples.

Results

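Tight junction genes were examined in RNA-seq data from skin papillomas of mice with and without induced NANOG. The 9 genes were picked by symbol, and all 9 were found among the 23122 gene symbols of the files. They are the claudins *Cldn1*, *Cldn3*, *Cldn4*, *Cldn7*, *Cldn8* and *Cldn23*, the genes of occludin (*Ocln*) and of junctional adhesion molecule A (*F11r*), and *Tjp1*, which encodes the scaffold protein ZO-1. Only genes that averaged 0.5 FPKM or more across all 7 papillomas were tested, 12299 in all. 8 of the 9 were among them, and *Cldn3* was below that limit. FPKM is the number of fragments of a gene set against the length of its transcript and the size of the library, so levels of different genes can be compared on this scale.

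Tight junctions close the space between neighbouring epithelial cells. Claudins form their strands and set which ions and molecules can pass, occludin and junctional adhesion molecules lie beside them in the membrane, and the ZO proteins tie the strands to the actin cytoskeleton. In the epidermis, functional tight junctions lie in the granular layer, under the cornified layer, and mice that lack *Cldn1* lose water through the skin and die after birth.

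Papillomas were induced in adult C57Bl/6 mice with the carcinogen DMBA, followed by repeated application of the tumor promoter TPA. The mice of both groups carried the *tetO-Nanog* allele at the *Col1a1* locus and drank water with doxycycline at 2 mg/ml for the whole protocol. Only the TG mice (n = 3) also carried *K5-rtTA*, in which the keratin 5 promoter drives the transactivator in keratinocytes of the basal layer, so that doxycycline turns *Nanog* on there, while CTR mice (n = 4) lacked it. Each library came from 1 papilloma of a different mouse, taken when the protocol ended, or earlier where a humane endpoint was reached. Whole papillomas were used, so a lower value can stand for fewer cells of a type or for less RNA in each cell, and these cannot be told apart.

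*Nanog* lay between 36.9 and 66.9 FPKM in TG and between 2.70 and 12.7 FPKM in CTR papillomas, in keeping with the labels. The libraries were inferred to hold between 10075778 and 15710864 reads on genes, and CTR 3 and TG 1 were the deeper ones. TG 3 stood apart from the other papillomas. Its median FPKM over all gene symbols was 1.15, against 0.551 to 0.689 elsewhere, and the main comparison did not scale for this. Its summed level of 8 skeletal muscle markers was 702 FPKM, against 1.62 to 5.48 FPKM elsewhere, and that of 8 fibroblast markers was 704 FPKM, against 75.9 to 132 FPKM. All 8 markers of each of these lists were higher in TG 3 than in any CTR papilloma, and *Ckm*, *Myh4*, *Tnnt3* and *Tnnc2* were listed at 0 in at least 1 papilloma. For 10 keratinocyte markers led by *Krt14* and *Krt5*, the sum was 10629 to 13568 FPKM in CTR papillomas and 17116, 12668 and 10070 FPKM in TG 1, TG 2 and TG 3. In TG 3 *Krt14* with 4717 FPKM was below its CTR range, while 5 of the 10 markers, among them *Krt5*, were higher than in every CTR papilloma. For 9 markers of differentiated keratinocytes, among them *Krt1*, *Krt10* and *Lor*, the sum was 3130 to 3776 FPKM in CTR papillomas, and in TG 1, TG 2 and TG 3 it was 7372, 7920 and 1288 FPKM. The sums in TG 1 and TG 2 were carried by *Krt1* and *Krt10*, which were above their CTR ranges there, while *Lor* with 1329 and 690 FPKM was inside its CTR range of 618 to 1555 FPKM. The less abundant *Ivl* and *Casp14* were also above their CTR ranges in TG 1 and TG 2. In TG 3, 1 of the 9 markers was above every CTR papilloma, *Ivl* with 36.4 FPKM against 17.7 to 26.8 FPKM. Differences between the groups that move with TG 3 are given with and without it.

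The start sites of the junction genes were searched for the E-box CACCTG, or CAGGTG on the other strand, because the repressors SNAIL and ZEB are known to bind it in promoters of claudins and occludin. Of the 9 genes, 7 had a promoter in the RefSeq table used here (GRCm38.p6). Within the 250 bases before the start site, *Cldn4*, *Cldn7*, *Ocln* and *F11r* held the E-box and *Cldn1*, *Cldn3* and *Tjp1* did not, while 17.2% of all 32851 promoters held it. The matches are shown with 12 bases on each side where the window allows, on the gene's own strand, and the capitals mark the E-box. A match is only a description of the letters and not a measured binding site.
*Cldn4*, chr5:134946935-134946960, minus strand: ctttaactgcagCACCTGtggccgcc
*Cldn7*, chr11:69965312-69965341, plus strand: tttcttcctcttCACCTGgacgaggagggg
*Cldn7*, chr11:69965352-69965381, plus strand: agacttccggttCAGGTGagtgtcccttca
*Ocln*, chr13:100552694-100552723, minus strand: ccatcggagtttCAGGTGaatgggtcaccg
*Ocln*, chr13:100552549-100552578, minus strand: ctaggggctcggCAGGTGggtcccagcgca
*F11r*, chr1:171437427-171437456, plus strand: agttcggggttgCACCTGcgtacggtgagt
*Cldn7* and *Ocln* each have 2 listed start sites, and both matches of each gene lie before the inner one. The match in *Cldn4* lies 14 bases before the start site, that in *F11r* 122 bases, those in *Cldn7* 97 and 57 bases and those in *Ocln* 213 and 68 bases. A motif of the Grainyhead-like factors, AACNGGTT or AACCNGTT, was in 1.79% of all promoters and in none of these 7 genes. Of the 4 genes with an E-box, *Ocln* had a lower mean and *Cldn4*, *Cldn7* and *F11r* had higher means in TG papillomas. Without TG 3, *Cldn7* also had a lower TG mean, 0.321 FPKM against 0.514 FPKM in CTR, and the directions of *Ocln*, *Cldn4* and *F11r* stayed.

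In CTR papillomas *F11r* had the highest mean level of the 9 genes, 30.8 ± 4.64 FPKM (SD, n = 4), followed by *Cldn8* with 27.9 ± 11.8, *Tjp1* with 26.3 ± 10.3 and *Cldn4* with 21.9 ± 7.27 FPKM. *Cldn1* and *Ocln* followed with 15.3 ± 4.95 and 13.3 ± 2.13 FPKM. *Cldn23* had 4.41 ± 1.34, *Cldn7* 0.514 ± 0.447 and *Cldn3* 0.0885 ± 0.101 FPKM. The ranges of neighbours in this order overlapped except between *Ocln* and *Cldn23* and between *Cldn23* and *Cldn7*. In TG papillomas *Cldn1* came first with 38.8 ± 13.3 FPKM (SD, n = 3), ahead of *F11r*, *Tjp1*, *Cldn4*, *Cldn8*, *Ocln*, *Cldn23*, *Cldn7* and *Cldn3*, and the ranges of all neighbours overlapped. *Cldn1* thus moved from the fifth to the first place and *Cldn8* from the second to the fifth.

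**Figure D1:**
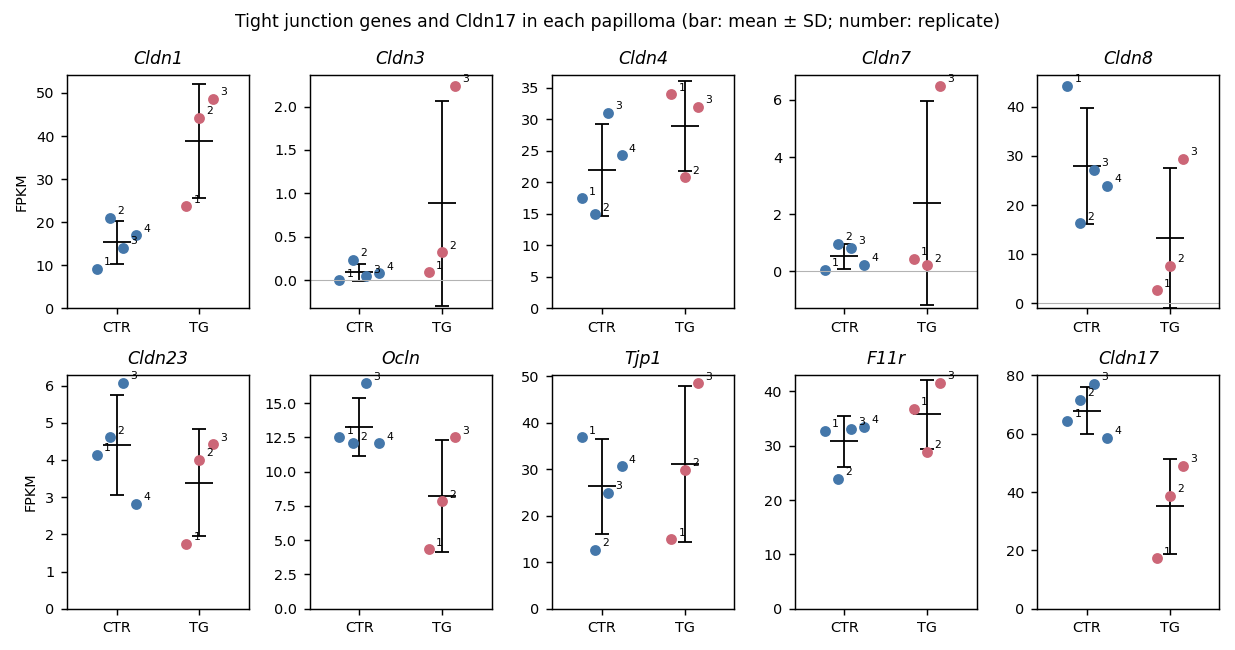
FPKM of the 9 tight junction genes and of *Cldn17* in each papilloma, on a linear axis that differs between genes, with 4 CTR points in blue, 3 TG points in red, the replicate number beside each point, and a bar for the mean ± SD. *Cldn1* is higher and *Cldn17* lower in every TG papilloma than in every CTR papilloma, and in *Cldn3*, *Cldn7* and *Cldn8* TG 3 lies far above the other TG papillomas.

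The comparison of TG with CTR papillomas was made with limma on log2(FPKM + 0.5), a scale that understates the change of low genes. With the Benjamini-Hochberg adjustment of limma, 0 genes passed a p of 0.05 in either direction (0.0% of the tested genes each way), so no tight junction gene passed. The induced *Nanog* itself did not pass (adjusted p = 0.400 from limma), so the lack of calls does not show that levels were unchanged. Without adjustment, p was under 0.05 for 598 genes with a higher TG mean (4.86%) and 241 with a lower one (1.96%), and the junction genes gave 1 of 8 higher (*Cldn1*) and 2 of 8 lower (*Cldn8* and *Ocln*). Those totals depended on scaling, with 515 higher and 418 lower after upper-quartile scaling, 403 and 551 after quantile normalization, and 264 and 541 when each papilloma was centred on its keratinocyte markers. Every TG papilloma exceeded every CTR papilloma in 4.93% of the tested genes, and 1 of the 8 junction genes, *Cldn1*, was among them. The opposite held for 2.23% of the tested genes and for 0 of the 8. The mean was higher in TG for 5 of the 8 genes and lower for 3, and their median log2 difference was 0.20, beside 0.06 over all tested genes. Of all 12299 tested genes, 7383 had a higher and 4916 a lower mean in TG. Without TG 3, 3 of 7 tested junction genes were higher and 4 lower, with a median of -0.21 beside -0.03 over all genes. With quality weights for the papillomas, 2 of 8 were higher and 6 lower. The plot of differences by setting shows these values gene by gene.

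**Figure D2:**
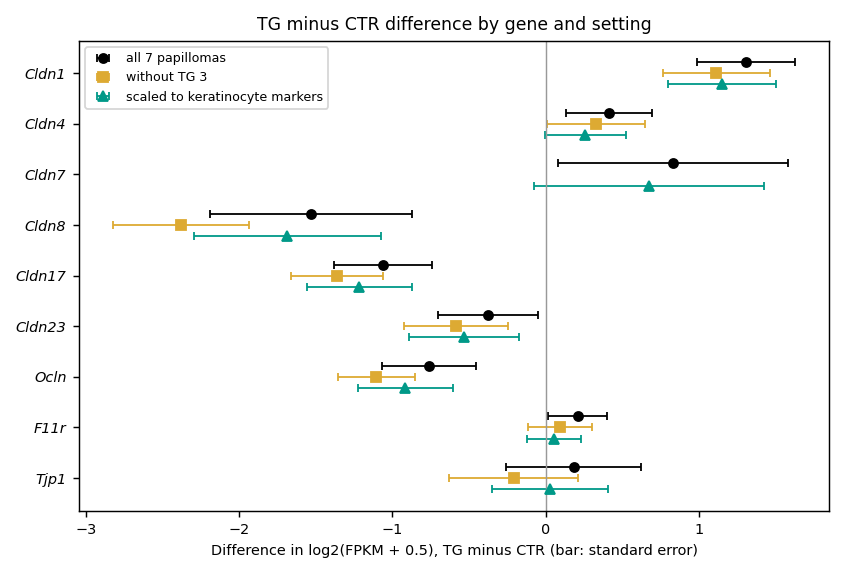
Difference in log2(FPKM + 0.5) between TG and CTR papillomas with its standard error from limma, for 8 tight junction genes and *Cldn17*, over all 7 papillomas (black), without TG 3 (yellow) and scaled to keratinocyte markers (green). *Cldn1* lies above 0 and *Cldn8*, *Cldn17*, *Cldn23* and *Ocln* below 0 in each setting, *Tjp1* crosses 0 without TG 3, and *Cldn7* has no value without TG 3 because it then misses the expression filter.

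*Cldn1*, the claudin that the epidermal barrier needs, lies on chromosome 16 from 26356646 to 26371839 (GRCm38, minus strand, 4 exons). From CTR 1 to CTR 4 its level was 9.25, 21.0, 14.0 and 17.0 FPKM, and from TG 1 to TG 3 it was 23.7, 44.2 and 48.6 FPKM. The lowest TG papilloma was thus above the highest CTR papilloma, and the ratio of the group means was 2.54. TG and CTR papillomas differed by 1.31 on the log2 scale (SE 0.32, adjusted p = 0.563, limma and Benjamini-Hochberg), and the exact permutation test of the group means gave p = 0.0286, the smallest that 35 splits of the papillomas allow. Without TG 3 the difference was 1.12 (adjusted p = 0.291 from limma). With quality weights, under which a papilloma that varies more counts less, it was 1.44 (adjusted p = 0.0447 from limma), the only setting in which it passed. After centring on keratinocyte markers it was 1.15 and after quantile normalization 1.29, and in both the groups overlapped. *Cldn1* was covered by between 486 and 2387 inferred reads, so counting error is small beside the spread between papillomas. TG 1 and TG 2 also had higher sums of keratinocyte differentiation markers than the CTR papillomas and TG 3 a lower one, and the part of this in the *Cldn1* values was not tested.

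*Cldn4* and *Cldn3*, 2 sealing claudins of many epithelia, are single-exon neighbours on chromosome 5, 39.3 kb apart with 0 protein-coding genes between them. *Cldn4* (134945124 to 134946934, minus strand) had 17.5, 14.9, 31.1 and 24.3 FPKM in CTR 1 to CTR 4 and 34.0, 20.8 and 32.0 FPKM in TG 1 to TG 3. TG 1 and TG 3 were above every CTR papilloma and TG 2 was inside the CTR range. The difference was 0.42 (log2, SE 0.28, adjusted p = 0.842 from limma, exact permutation test p = 0.257), and it became -0.02 with quality weights. The ratio of *Cldn4* to *Cldn1* in each papilloma was also compared. On the log2 scale it was 0.88, -0.48, 1.12 and 0.51 in CTR 1 to CTR 4 and 0.51, -1.07 and -0.60 in TG 1 to TG 3. The means differed by -0.89, and the groups overlapped (2-sided exact permutation test, p = 0.171).

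*Cldn3* (134986214 to 134987476, plus strand) was close to the detection limit. It was listed at 0 in CTR 1 and had 0.232, 0.0454 and 0.0768 FPKM in CTR 2, CTR 3 and CTR 4. TG 1 had 0.0926, TG 2 0.319 and TG 3 2.24 FPKM. TG 1 was inside the CTR range, and the TG mean rested on TG 3. The number of inferred reads was between 0 and 29 with a median of 2, so for most papillomas no difference was detectable at this depth. The log2 difference was 0.92 with TG 3 and 0.26 without it (exact permutation test with all 7 papillomas, p = 0.0571). An antisense gene, *Wbscr25*, overlaps *Cldn3* on the other strand. The library kit keeps strand, and whether the counting used it is not given in the sources used here, so reads of the 2 genes may not have been separated.

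*Cldn7*, a claudin that also lies along the lateral membrane of epithelial cells, maps to chromosome 11 from 69964779 to 69967886 (plus strand). It had 0.0497, 0.965, 0.820 and 0.221 FPKM in CTR 1 to CTR 4 and 0.439, 0.202 and 6.51 FPKM in TG 1 to TG 3. TG 1 and TG 2 were inside the CTR range and TG 3 was far above all other papillomas. The log2 difference of 0.83 (SE 0.75, adjusted p = 0.887 from limma, exact permutation test p = 0.543) became -0.20 without TG 3 and -0.03 with quality weights. Simple-epithelial keratins, which mark glandular and other simple epithelia, were also highest in TG 3. The sum of *Krt7*, *Krt8*, *Krt18* and *Krt19* was 44.0 FPKM there and 1.36 to 8.49 FPKM in the other 6 papillomas. The whole list of 7 simple-epithelial markers, which also holds *Aqp5*, *Muc1* and *Epcam*, stood out less. Its sum was 102.5 FPKM in TG 3 and 37.0 to 61.9 FPKM in the other 6, and 6 of the 7 markers were higher in TG 3 than in every CTR papilloma. All 4 keratins were higher in TG 3 than in every CTR papilloma, and their part in the *Cldn7* and *Cldn3* values was not tested. Inferred reads of *Cldn7* had a median of 10.3 and reached 123 in TG 3.

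*Cldn8*, known from the distal nephron as a barrier to cations, is a single-exon gene on chromosome 16 from 88560826 to 88563183 (minus strand). It had 44.3, 16.3, 27.2 and 23.9 FPKM in CTR 1 to CTR 4. TG 1 to TG 3 had 2.70, 7.72 and 29.5 FPKM. TG 1 and TG 2 were below every CTR papilloma, while TG 3 was above 3 of the 4. TG papillomas differed from CTR papillomas by -1.53 (log2, SE 0.66, adjusted p = 0.726 from limma), and in the exact permutation test p was 0.2. Without TG 3 the groups did not overlap, which 9.03% of all tested genes then showed in the same direction. The difference was then -2.38 (adjusted p = 0.105 from limma), in a design of 4 against 2 where the exact permutation test cannot go below p = 0.0667. Without TG 1 it was -0.77, and among the papillomas of lower depth, without TG 1 and CTR 3, it was -0.75. Among TG papillomas, TG 1 was the lowest and TG 3 the highest for *Cldn8*, and the same order held for *Cldn1*, *Cldn3*, *Cldn23*, *Ocln*, *Tjp1* and *Cldn17*. It did not hold for *Cldn4*, *Cldn7* and *F11r*. The share of all genes with this order was not counted, so it is not read as particular to the junction genes. TG 1 and TG 2 also had more than the CTR sum of keratinocyte differentiation markers and TG 3 had less, and the part of this in *Cldn8*, *Ocln* and *Cldn17* was not tested.

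*Cldn17*, which encodes an anion-selective claudin and is not among the 9 genes, is the next protein-coding gene beside *Cldn8*. The 2 single-exon genes lie 53.8 kb apart. It had 64.4, 71.6, 77.2 and 58.5 FPKM in CTR 1 to CTR 4 and 17.3, 38.8 and 49.1 FPKM in TG 1 to TG 3. The groups did not overlap. *Cldn17* is named here by that rule, so its permutation p restates the choice and adds no support. TG papillomas differed by -1.06 on the log2 scale (SE 0.32, adjusted p = 0.625 from limma, exact permutation test p = 0.0286), and the groups stayed apart without TG 3 (-1.36, adjusted p = 0.134 from limma), without TG 1 (-0.63, adjusted p = 0.521) and in the shallower papillomas alone (-0.56, adjusted p = 0.799). Of all tested genes, 2.23% were apart in this direction with all 7 papillomas. The shares were 9.03% without TG 3, 7.23% without TG 1 and 8.07% in the shallower papillomas alone. *Cldn17* was the most abundant claudin transcript in all 4 CTR papillomas.

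*Cldn23*, one of the less studied claudins, lies on chromosome 8 from 35824709 to 35826559 (minus strand). It had 4.15, 4.61, 6.07 and 2.82 FPKM in CTR 1 to CTR 4 and 1.74, 4.01 and 4.42 FPKM in TG 1 to TG 3. TG 1 was the lowest papilloma, and TG 2 and TG 3 were inside the CTR range. The log2 difference was -0.37 (SE 0.33, adjusted p = 0.878 from limma, exact permutation test p = 0.371). It was -0.02 without TG 1 and 0.14 among the papillomas of lower depth, which leave out TG 1 and CTR 3.

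The claudin transcripts were then set against each other within each papilloma, as shares of the summed FPKM of 23 claudins. The sum was 144 ± 13.1 FPKM (SD, n = 4) in CTR and 131 ± 49.1 FPKM (SD, n = 3) in TG papillomas. *Cldn17* and *Cldn8* together made up 74.4%, 65.1%, 64.5% and 61.8% of it in CTR 1 to CTR 4. In TG 1, TG 2 and TG 3 they made up 23.4%, 37.5% and 42.9%. The share of this pair was below the CTR range in every TG papilloma. Both genes had lower TG means above, so the share of the pair restates those values and is only a description. *Cldn17* alone took 43.9% to 53.1% in CTR and 20.3%, 31.3% and 26.8% in TG 1 to TG 3, while *Cldn8* alone took 12.1% to 30.3% in CTR and 3.16%, 6.23% and 16.1% in TG 1 to TG 3. In TG 3 the *Cldn8* share was thus inside its CTR range and only the *Cldn17* share was below. *Cldn1* made up 6.33% to 15.6% in CTR and 26.5% to 35.7% in TG papillomas, and *Cldn4* 11.1% to 19.2% and 16.8% to 39.8%. The *Cldn1* ranges did not meet, and the *Cldn4* ranges overlapped. *Cldn23* stayed between 2.04% and 3.75% in all papillomas. Only 8 of the 23 claudins averaged 0.5 FPKM or more, 2 (*Cldn13* and *Cldn18*) were listed at 0 in every papilloma, and 11 of the other 21 were highest in TG 3. Shares of 1 sum are not independent of each other, and they are given without a test.

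**Figure D3:**
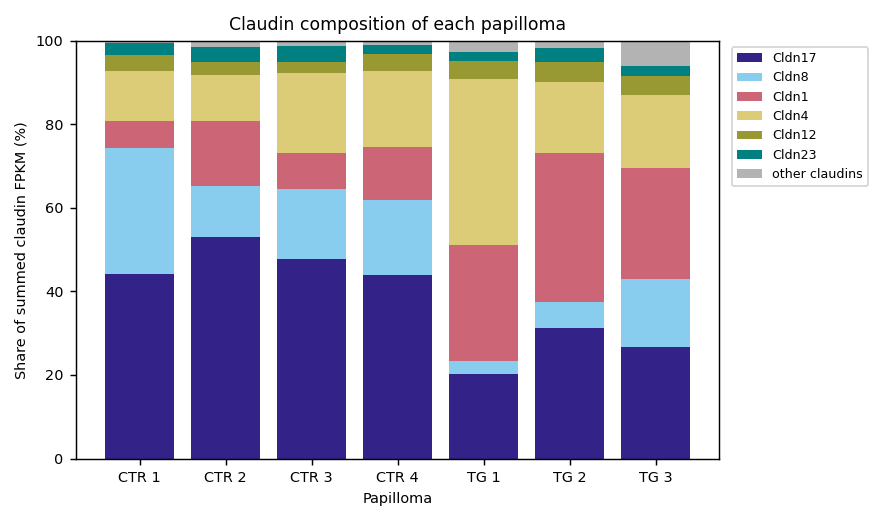
Share of the summed claudin FPKM (percent of the whole) taken by each claudin in each papilloma, with claudins outside the 6 named ones in grey. *Cldn17* and *Cldn8*, which both have lower TG means, take 61.8% to 74.4% in the CTR papillomas and 23.4% to 42.9% in the TG papillomas. In the TG papillomas *Cldn1* takes 26.5% to 35.7%.

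*Ocln* encodes occludin, a membrane protein of the junction strands, and lies on chromosome 13 from 100497367 to 100552498 (minus strand). It had 12.5, 12.1, 16.4 and 12.1 FPKM in CTR 1 to CTR 4. TG 1 to TG 3 had 4.34, 7.82 and 12.5 FPKM. TG 1 and TG 2 were below every CTR papilloma, and TG 3 was at the level of CTR 1. On the log2 scale the difference was -0.76 (SE 0.31, adjusted p = 0.706 from limma), the groups overlapped, and the exact permutation test gave p = 0.114. Without TG 3 it was -1.10 (adjusted p = 0.146 from limma) and the groups did not overlap, as for 9.03% of all tested genes in that direction. They also did not overlap with all 7 papillomas after upper-quartile scaling or quantile normalization, where 4.08% and 5.54% of all tested genes did the same. The difference was -0.39 without TG 1 and -0.29 in the shallower papillomas alone.

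*F11r*, the gene of junctional adhesion molecule A, an immunoglobulin-like adhesion protein, lies on chromosome 1 from 171437561 to 171464593 (plus strand, 10 exons). It had 32.8, 23.9, 33.1 and 33.5 FPKM in CTR 1 to CTR 4 and 36.8, 28.9 and 41.6 FPKM in TG 1 to TG 3. CTR 2 was the lowest papilloma, and TG 2 was inside the CTR range. This was the narrowest range of the 9 genes, 1.74-fold between the lowest and the highest papilloma. The log2 difference was 0.21 (SE 0.19, adjusted p = 0.888 from limma, exact permutation test p = 0.4), and it was -0.06 with quality weights. Without TG 2, the TG values of *F11r* and of *Cldn4* were all above the CTR values, as were those of 9.88% of all tested genes.

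*Tjp1* encodes the scaffold protein ZO-1, which binds claudins and actin, and lies on chromosome 7 from 65296165 to 65371244 (minus strand). It had 36.9, 12.7, 25.0 and 30.7 FPKM in CTR 1 to CTR 4 and 14.9, 29.9 and 48.5 FPKM in TG 1 to TG 3. The lowest TG papilloma was near the lowest CTR papilloma, and TG 3 was the highest of all. The log2 difference was 0.18 (SE 0.44, adjusted p = 0.971 from limma, exact permutation test p = 0.771). It was -0.12 without CTR 2 and -0.21 without TG 3. *Tjp1* was covered by between 1837 and 5211 inferred reads.

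Of the other genes of the junction, 53 were listed (claudins, other membrane proteins, scaffolds, polarity proteins, and small GTPases or their regulators), and 33 were tested. 26 had a higher and 7 a lower mean in TG papillomas, beside 7383 and 4916 of all 12299 tested genes. 0 passed the adjusted test of limma, and the median log2 difference was 0.20, beside 0.06 over all tested genes. At an unadjusted p under 0.05, 4 were higher and 1 was lower, beside 4.86% and 1.96% of all tested genes. All TG values were above all CTR values for 4 genes (*Cldn5*, *Tjp3*, *Amotl2* and *Prkcz*), and the opposite held for 1 (*Cldn17*), beside 4.93% and 2.23% of all tested genes. Without TG 3, 19 were higher and 14 lower, with a median of 0.03 beside -0.03 over all genes. The map of log2 levels by papilloma shows most of the higher values in TG 3.

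**Figure D4:**
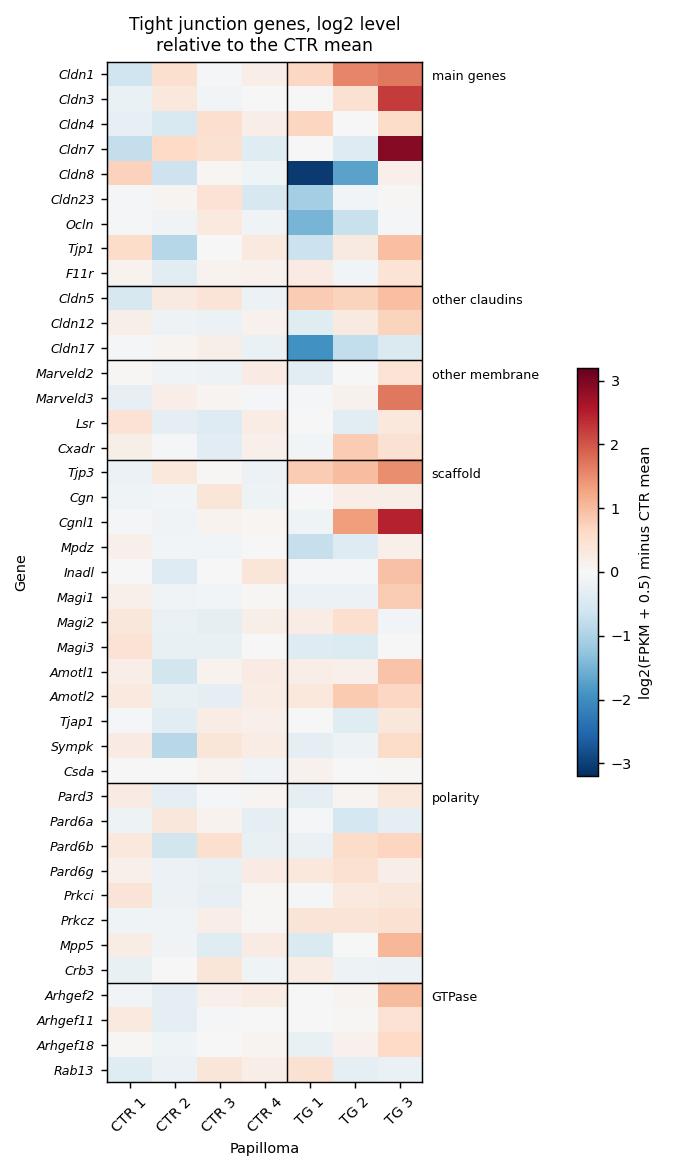
Log2(FPKM + 0.5) of each tight junction gene in each papilloma minus its CTR mean, in red where higher and blue where lower, for the 9 main genes and tested genes of the other lists, with columns for CTR 1 to CTR 4 and TG 1 to TG 3. *Cldn8*, *Ocln* and *Cldn17* are blue in TG 1 and TG 2 and nearer to the CTR mean in TG 3, and *Cldn3* and *Cldn7* are deep red in TG 3 alone.

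Among scaffolds, 14 of the 15 listed were tested, 12 with a higher and 2 with a lower mean, beside 7383 and 4916 of all 12299 tested genes. *Tjp3*, which encodes ZO-3, had 1.43, 2.28, 1.77 and 1.44 FPKM in CTR 1 to CTR 4 and 3.39, 3.90 and 5.70 FPKM in TG 1 to TG 3. Its log2 difference was 1.10 (SE 0.23, adjusted p = 0.538 from limma, exact permutation test p = 0.0286), and it was 0.91 without TG 3. *Tjp3* too is named because its groups did not overlap, so its permutation p restates the choice. *Amotl2*, an angiomotin-like protein, had 8.19 ± 1.52 FPKM in TG (SD, n = 3) and 5.22 ± 1.27 FPKM in CTR papillomas (SD, n = 4). The scaffolds with the smallest p among the lower ones were *Mpdz* (log2 difference -0.32, adjusted p = 0.858 from limma) and *Magi3* (-0.29, adjusted p = 0.858), with -0.57 and -0.43 without TG 3. The ZO-3 gene was therefore above its CTR range in all 3 TG papillomas, while *Tjp1* overlapped between the groups. Whether the differences of *Tjp3* and *Tjp1* differ from each other was not tested.

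Among the other claudins, only *Cldn5*, *Cldn12* and *Cldn17* passed the filter. *Cldn5*, best known from endothelial tight junctions, had 0.157 to 0.745 FPKM in CTR papillomas and 1.15, 1.04 and 1.33 FPKM in TG 1 to TG 3 (log2 difference 0.83, adjusted p = 0.687 from limma). The summed level of 8 endothelial markers, among them *Pecam1*, was 14.3 to 20.7 FPKM in CTR papillomas and 33.9, 18.3 and 41.7 FPKM in TG 1 to TG 3, and its part in the *Cldn5* values was not tested. *Cldn12* had 4.99 ± 0.747 FPKM in CTR (SD, n = 4) and 6.07 ± 2.35 FPKM in TG papillomas (SD, n = 3), a log2 difference of 0.20 that became -0.05 without TG 3. Of the other membrane proteins, *Cxadr* (log2 difference 0.41, and 0.37 without TG 3) and *Marveld3* (0.58, and 0.04 without TG 3) had the smallest p among the higher ones. *Marveld3* had 0.939 and 1.12 FPKM in TG 1 and TG 2, inside its CTR range, and 4.26 FPKM in TG 3. *Lsr*, which marks junctions where 3 cells meet, had nearly equal means (-0.0026, and -0.17 without TG 3). Those 3 genes overlapped between the groups.

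The polarity genes gave 6 higher and 2 lower of 8 tested, beside 7383 and 4916 of all 12299 tested genes. *Prkcz*, an atypical protein kinase C, had 1.25 ± 0.0561 FPKM in TG (SD, n = 3) and 0.800 ± 0.144 FPKM in CTR papillomas (SD, n = 4), and the groups did not overlap (log2 difference 0.44, adjusted p = 0.760 from limma). *Pard6g* had a log2 difference of 0.34, and *Pard6a* and *Crb3*, with -0.29 and -0.04, were the 2 lower ones, with 0.41, -0.30 and 0.03 without TG 3. Among the 4 genes of small GTPases or their regulators the differences lay between -0.01 (*Rab13*) and 0.35 (*Arhgef2*), with 0.18 for *Arhgef18*. Without TG 3 they were 0.09 for *Rab13*, 0.03 for *Arhgef2* and -0.05 for *Arhgef18*. The membrane serine proteases *Prss8* and *St14*, which act in epidermal barrier formation, differed by 0.26 and 0.09, and their inhibitors *Spint1* and *Spint2* by -0.24 and -0.02. Without TG 3 these 4 differences were 0.12, -0.19, -0.42 and -0.14. With all 7 papillomas the groups overlapped for all 4, and the exact permutation test gave p between 0.257 and 0.8 for the proteases and inhibitors.

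Regulators of epithelial genes were tested in 13 of 14 cases, with 8 higher and 5 lower means, beside 7383 and 4916 of all 12299 tested genes. Of the regulators, 0 had a p under 0.05 in limma with or without adjustment. *Snai1*, which encodes the E-box repressor SNAIL, was low but did not overlap, with a highest CTR value of 0.528 FPKM and a lowest TG value of 0.570 FPKM (0.77 on the log2 scale, adjusted p = 0.736 from limma, and 0.41 without TG 3). *Twist1* differed by 0.72 (adjusted p = 0.799, limma), and by 0.34 without TG 3. *Grhl3* and *Ovol1*, activators and regulators of epidermal differentiation, had -0.22 and -0.29, and without TG 3 -0.21 and -0.33. With all 7 papillomas, the 4 junction genes with an E-box match, *Cldn4*, *Cldn7*, *F11r* and *Ocln*, all overlapped between the groups. So did most tested genes, since 4.93% were apart with higher and 2.23% with lower TG values. *Ocln* was apart without TG 3, and *Cldn4* and *F11r* without TG 2, as were 9.03% and 9.88% of all tested genes in those directions. The part of the regulators in these values was not tested.

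For the 3 tested junction genes with the widest range, the genes with the most similar profile over the 7 papillomas were sought among all tested genes, by the root mean square difference of centred log2 values. For *Cldn8* (range 3.81) they were *Npas2*, *LOC100302567* and *Il1rn*, with differences of 0.54, 0.56 and 0.56, where the median over all genes was 1.20. *Il1rn*, the interleukin 1 receptor antagonist, had 94.0 to 197 FPKM in CTR papillomas and 41.1, 96.1 and 142 FPKM in TG 1 to TG 3. For *Cldn7* (range 3.67) they were *Pglyrp1*, *Tnni2* and *1500015O10Rik*, with differences of 0.29, 0.30 and 0.31 and a median over all genes of 1.12. *Tnni2*, a troponin of fast skeletal muscle, had 61.3 FPKM in TG 3 and did not exceed 10.8 FPKM elsewhere. For *Cldn1* (range 2.33) they were *Tmem173*, *Prnd* and *Prl2c5*, with differences of 0.17, 0.19 and 0.22 and a median over all genes of 0.81. These 3 genes were low, and *Tmem173*, which encodes the DNA-sensing adaptor STING, had 0.738 to 1.58 FPKM in CTR papillomas and 2.13, 3.34 and 4.76 FPKM in TG 1 to TG 3. With 7 papillomas, many genes can share a profile, and these are descriptions without a test.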

How the data were processed

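RNA-seq libraries of single papillomas from 4 CTR and 3 TG mice were used, grouped by their labels. Per the labels and the methods, stranded polyA libraries were aligned to GRCm38/mm10 with TopHat2 2.0.4 (Bowtie 0.12.7, SAMtools 0.1.16), and Cufflinks 1.3.0 was run library by library. Values were deposited as FPKM per gene by the authors, with an interval and a status. Depth is not given in the sources used here. It was inferred from the width of the intervals and is approximate. It covers counting error only.

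FPKM was summed per symbol, and 162 symbols with a failed estimate in any papilloma were left out. No further scaling was applied. log2(FPKM + 0.5) of genes that averaged 0.5 FPKM or more was compared with limma 3.58.1 in R 4.3.3, with a trend and Benjamini-Hochberg adjustment over all tested genes. The fit was tested on simulated data. Single genes were compared by 2-sided exact permutation tests over 35 splits (scipy 1.17.1). An entry named *Cldn25* lies on the locus of *Cldnd1*, which is not a classical claudin, and was left out. *Flg* was not analysed here.

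The 9 genes and all gene lists were chosen with earlier results of these data known. Besides the 9 genes and *Nanog*, named genes were the 2 per list with the smallest p in each direction, every listed gene whose groups did not overlap, the 3 nearest profiles of the 3 most variable genes, and leading marker genes. 1 listed gene is not reported here.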

Additional observations from a re-analysis of the deposited data

Results flagged for a closer look

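In the CTR group, 3 of 11 values compared by Dixon's ratio, the gap of the farthest papilloma to its neighbour over the range of the group, were above its 95% critical value for 4 samples. Chance gives this in about 1 of 20 groups. *Ocln* reached 0.900, since CTR 3 (16.4 FPKM) was above 3 CTR papillomas between 12.1 and 12.5 FPKM. *F11r* reached 0.923, since CTR 2 (23.9 FPKM) was below 3 CTR papillomas between 32.8 and 33.5 FPKM. *Nanog* reached 0.936, since CTR 3 had 12.7 FPKM and the other CTR papillomas 2.70 to 3.34 FPKM.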

How the results depend on the processing

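Up to 21 alternatives were computed for each result (pseudocounts of 0.1 and 1 FPKM, no filter and a minimum of 2 FPKM, upper-quartile, quantile and keratinocyte marker scaling, robust moderation, quality weights, a replicate block, other handling of entries and statuses, depth, and each papilloma left out). *Cldn1* stayed higher in all 21 (1.10 to 1.63) and *Cldn8* (-2.38 to -0.75) and *Ocln* (-1.10 to -0.29) lower in all 21. With quality weights limma called 49 genes higher and 36 lower after adjustment, *Cldn1* passed with 1.44, and differences changed sign for *Cldn4* (-0.019), *Cldn7* (-0.029) and *F11r* (-0.063). Papillomas of lower depth gave 1 gene higher and 0.14 for *Cldn23*. Leaving out 1 papilloma in turn gave 0 to 9 genes higher and 0 to 8 lower, with 9 and 8 without TG 3, 2 higher without TG 1 and 1 higher without CTR 3, and *Tjp1* moved between -0.21 and 0.63, below 0 without CTR 2 (-0.12) or TG 3. The *Cldn4* to *Cldn1* ratio ranged from -1.34 to -0.55 over 10 alternatives. The cause of these shifts was not tested. Scaling to keratinocyte markers takes 1 offset per papilloma off every gene. The difference of every gene therefore moves by the same amount, -0.16, and that of *Cldn1* went from 1.31 to 1.15.

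CTR and TG papillomas share replicate numbers, and neither labels nor methods pair them. Deviations of same-numbered papillomas correlated at -0.19, 0.04 and -0.15. With the replicate number as a block, *Cldn1* differed by 1.38 (adjusted p = 0.407 from limma), 0 genes passed in either direction, and 505 were higher and 170 lower at an unadjusted p under 0.05. Depth limits *Cldn3* and *Cldn7*, with medians of 2 and 10.3 inferred reads, and 4 against 3 papillomas limits every permutation p to 0.0286 or more.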
